A study of Mus musculus with 2 samples.

Results

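The variable (V) gene segments of the immunoglobulin heavy chain, Ighv, were examined for chromatin domain boundaries in mature olfactory sensory neurons of the mouse. Members were all genes of GENCODE mouse release 21 whose names start with Ighv on chromosome 12 of GRCm38, pseudogenes included, which gave 185 of the 53843 genes on chromosomes 1 to 19 and X. They were set against every boundary in their span and in 1 Mb to each side, which held 17 of the 8058 boundaries of the deposited list. The locus was chosen by measured values of this list, the positions and strengths of its boundaries, so these are given as a description, with no test.

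The boundaries came from in situ Hi-C, a method that records which pieces of the genome touch by ligating fixed and digested chromatin inside intact nuclei. The only group was mature neurons sorted by FACS from olfactory epithelium of adult, mixed-sex OMP-GFP mice of strain 129P2/OlaHsd, in which the olfactory marker protein gene drives the green fluorescent marker, with no treatment. It had 2 biological replicates, of 3000000 and 1500000 cells, cut with DpnII and called together as 1 pooled map, so no value below has a spread between replicates. The files hold no expression values, so the sorted cell type was not set against its markers here, and the depth of the map is unknown.

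A B cell builds its heavy chain by joining 1 V segment to a diversity (D) and a joining (J) segment, in a reaction that the RAG proteins start at recombination signals beside each segment. The V segments lie in families of near copies, read toward the D, J and constant genes, and B cell precursors bring distant V segments close to the D and J segments by folding the locus. The protein CTCF, which stops the loop-forming cohesin complex in a direction set by its motif, binds at many places in this locus in B cell precursors. Neurons do not rearrange these genes.

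The 185 records carried 183 distinct names, since Ighv5-8 and Ighv1-13 each had a second record on the plus strand, annotated as IG_LV_gene. The other 183 records lay on the minus strand, 113 annotated as V genes and 70 as V pseudogenes, in 16 families. They ran from Ighv5-1, nearest the D segments, to Ighv1-86 over chr12:113572927-116010093, a span of 2.44 Mb. Ighv1 had 93 records, Ighv5 22, Ighv8 16 and Ighv2 11, and each of the other 12 families had at most 8.

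Recombination signals were searched at the 3′ ends of the 185 members, and some of those found are shown. The following sequences are from the minus strand of GRCm38, 5′ to 3′, with the 7-base heptamer and the 9-base nonamer in capitals. Ighv5-1 and Ighv2-2 stand for the D-near families, Ighv1-52 and Ighv1-53 flank the second strongest boundary of the span, and Ighv1-75 lies at the strongest.
Ighv5-1, chr12:113572888-113572926: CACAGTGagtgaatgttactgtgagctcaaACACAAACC
Ighv2-2, chr12:113588228-113588266: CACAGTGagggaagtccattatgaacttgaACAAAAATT
Ighv1-52, chr12:115145449-115145486: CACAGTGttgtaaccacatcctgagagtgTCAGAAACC
Ighv1-53, chr12:115158365-115158402: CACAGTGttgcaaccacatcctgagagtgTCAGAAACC
Ighv1-75, chr12:115833912-115833949: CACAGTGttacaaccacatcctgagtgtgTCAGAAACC
Ighv1-84, chr12:115980664-115980701: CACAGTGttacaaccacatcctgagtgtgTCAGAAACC
The signals of Ighv1-75 and Ighv1-84 were identical letter for letter. The heptamer CACAGTG, followed after 22 to 24 bases by the nonamer ACAAAAACC with at most 2 mismatches, was found within 20 bases of the 3′ end of 78 members. Over all genes of the annotation the same search found it at 0.282%. Of those 78, 61 were V genes and 17 pseudogenes, and none was among the 16 Ighv8 records. The spacer between heptamer and nonamer had 22 bases in 47 members, of which 39 were Ighv1, 23 bases in 29 and 24 bases in 2. Ighv1-67, which overlapped a boundary, was among the 2. Only the gene strand was searched, and a missing match says no more than that these letters are not in that window.

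The promoter octamer ATGCAAAT, which POU-domain factors read in immunoglobulin promoters, stood in the 250 bases before the start of 127 members, on the gene's own strand in each. Both strands were searched, and the share over all genes was 2.01%. It was present before 90 V genes and 37 pseudogenes, and its median distance from the start was 107 bases in the V genes that had it. None of the 11 Ighv2 records had it. The octamer with 12 bases on each side is shown for the first gene of the span and for the gene at the strongest boundary, on the minus strand.
Ighv5-1, chr12:113573514-113573545: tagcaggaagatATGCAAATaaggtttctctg
Ighv1-75, chr12:115834486-115834517: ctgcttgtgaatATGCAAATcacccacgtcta

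The neurons' map had 8 boundaries between the first and the last Ighv gene. A boundary in this list is a 5 kb bin across which fewer contacts were made than to either side. The authors gave each a strength, a score without a stated scale, and a class, which from the values was Weak for 0.2 to 0.5 and Strong above 0.5. The 8 boundaries had strengths of 0.674, 1.09, 0.415, 1.62, 0.523, 0.467, 4.32 and 1.21, in order from the D-near end. Of these, 6 were Strong (75%), where 50.8% of all boundaries in the list were Strong. The median strength was 0.880 in the span, 0.483 over the 9 boundaries of the flanks and 0.509 over the whole list. The highest strength of the span was 4.32 and the next 1.62, and since the scale is not stated these are given as values and ranks only.

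**Figure D1:**
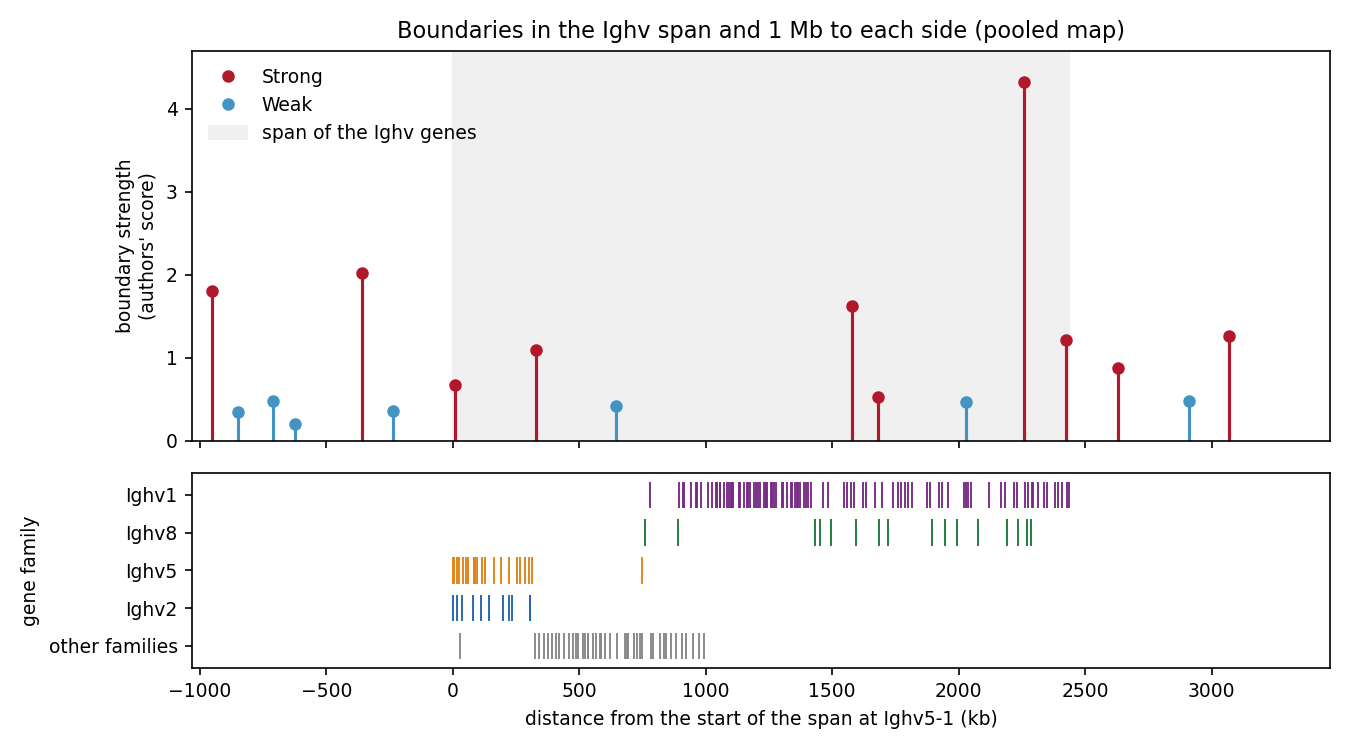
Strength of each boundary (upper panel, authors' score, red Strong and blue Weak) and the position of the Ighv genes by family (lower panel, 1 line per record) against the distance from the start of the span at Ighv5-1 in kb. The shaded area is the span of the genes; the highest point, 4.32, lies near its far end, and 4 of the 8 boundaries inside the span reach 1.09 or more.

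The first boundary of the span, chr12:113580001-113585000, lay between Ighv5-2 and Ighv2-2, only a few genes from the D-near end. Ighv5-2 lay 1.01 kb before it and Ighv2-2 3.27 kb after it. For boundaries, before, past and after follow rising coordinates, so a boundary before a minus-strand gene lies on its 3′ side. The second, chr12:113900001-113905000, lay between Ighv7-1 and Ighv7-2, at 3.05 and 7.02 kb. The D-near block of Ighv2 and Ighv5 records ended before it, with Ighv7-1 between that block and the boundary. The third, chr12:114215001-114220000, was Weak and lay 18.1 kb past Ighv3-3 and 2.79 kb before Ighv7-4. All 3 fell between genes and overlapped none of the members.

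The fourth boundary, chr12:115150001-115155000, lay between Ighv1-52 and Ighv1-53, at 4.08 and 3.40 kb, and ranked 598 of 8058 by strength. The fifth, chr12:115250001-115255000, followed after 100 kb between Ighv1-56 and Ighv8-7. The sixth, chr12:115600001-115605000, was Weak and covered the record of Ighv1-67, a V gene with an intact heptamer. The last of the 8, chr12:115995001-116000000, lay 13.9 kb past Ighv1-84 and 0.027 kb from the 3′ end of Ighv1-85, and ranked 1256.

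The strongest boundary, chr12:115830001-115835000, covered Ighv1-75 and the processed pseudogene Gm19843. Its strength ranked 1 of 8058, and the next values anywhere in the list were 4.13, on chromosome 1, and 3.94. Ighv8-14 lay 21.1 kb before it and Ighv8-15 9.02 kb after it. The closest copy of Ighv1-75 among the members was Ighv1-84, at 92.6% identity, so it had no copy above 95%.

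Boundaries divided the array into stretches of unequal length and makeup. The spacings between adjacent boundaries, from the D-near end, were 320, 315, 935, 100, 350, 230 and 165 kb, with a median of 315 kb against 260 kb over the whole list. The 935 kb stretch between the third and the fourth boundary was among the longest spacings: 138 of 8038 in the list (1.72%) were at least as long. On chromosome 12 it ranked 9 of 337, and the longest there was 3265 kb.

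Ighv2 and Ighv5 lay almost wholly on the D-near side of the second boundary, whereas Ighv1 was spread over 6 of the 9 stretches and Ighv8 over 5. The first 9.57 kb, before the centre of the first boundary, held Ighv5-1, Ighv2-1 and Ighv5-2. The next stretch held 31 records, 19 of Ighv5, 10 of Ighv2 and 1 each of Ighv6 and Ighv7. All 11 Ighv2 records and 21 of the 22 Ighv5 records thus lay before that boundary, and the remaining one, Ighv5-21, lay in the 935 kb stretch. The third stretch, 315 kb, held 21 records of 10 families, none of them Ighv1, Ighv2, Ighv5 or Ighv8.

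The 935 kb stretch held 82 of the 185 records, of 11 families, 56 of them Ighv1. It contained Ighv1-26, Ighv1-34 and the gene farthest from any boundary, Ighv1-18, at 465 kb. From the fourth boundary on, the 5 remaining stretches held 5, 18, 11, 12 and 2 records, all Ighv1 or Ighv8. Gene density differed among them: the 935 kb stretch had 8.77 records per 100 kb, and the 5 stretches beyond it had 5, 5.14, 4.78, 7.27 and 15.9, the last over 12.6 kb with 2 records. Families of the array lie in blocks along the chromosome, so neighbouring records share both family and boundary and are not independent.

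**Figure D2:**
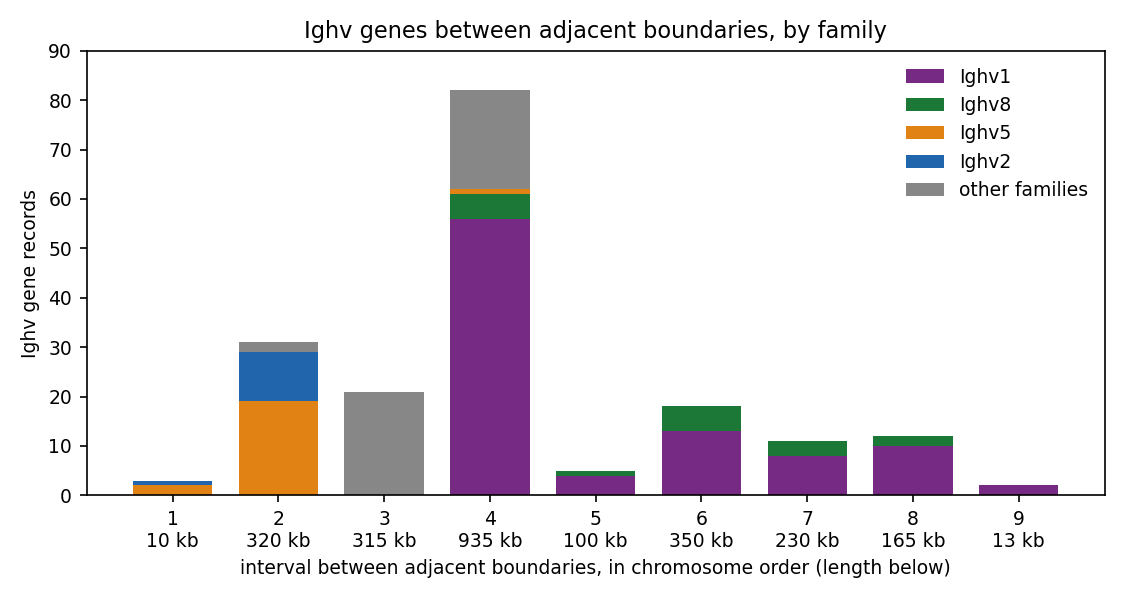
Number of Ighv gene records in each of the 9 stretches set off by the 8 boundaries of the span, in chromosome order from the D-near end, coloured by family, with the length of each stretch under its bar. The fourth stretch, 935 kb long, holds 82 records, and stretches 5 to 9 hold only Ighv1 and Ighv8.

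Of the 185 members, 29 had a boundary within 20 kb of their start (15.7%; exact binomial 95% interval 10.8 to 21.7%, which covers counting only and treats neighbours as independent). Over all genes the share was 17.9%, over protein-coding genes 21.2% and over pseudogenes of any kind 14.2%, so the members' share lay near the background. A boundary lay in the very bin of the start in 2 members, where 2.43% of all genes had one. All 8 boundaries of the span lay within 20 kb of a member.

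The far members made up a larger share here than among genes at large. The median distance was 105 kb against 70 kb over all genes, and 54 members (29.2%) lay over 200 kb away against 12% of all genes. All 54 lay in the 935 kb stretch. Among the larger families the median distance was 190 kb in Ighv1, 70 kb in Ighv2, 67.5 kb in Ighv5 and 55 kb in Ighv8, with wide overlap. Ighv1 itself ranged from 0 to 465 kb. The 4 Ighv10 records, all inside the 935 kb stretch, lay 260 to 330 kb away, and 3 of the 4 Ighv7 records lay within 20 kb.

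**Figure D3:**
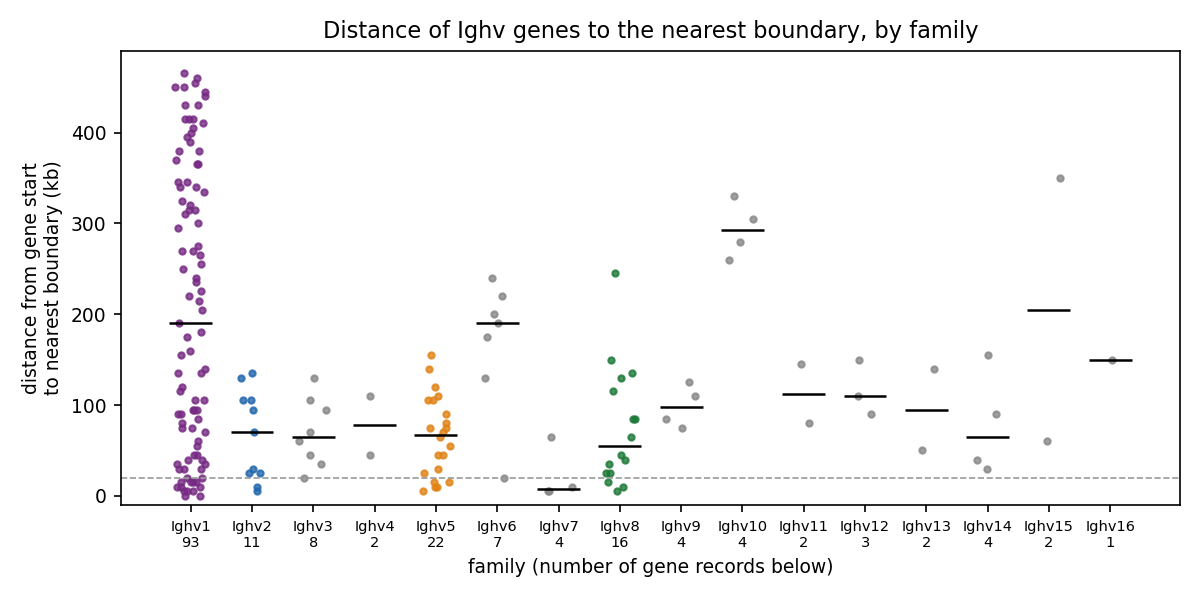
Distance in kb from the start of each Ighv gene record to the nearest boundary, by family, with the number of records under each name; points are records, black bars are medians and the dashed line marks 20 kb. Ighv1 spreads from 0 to 465 kb, and 29 records of all families lie at or under the line.

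The 14-base core of the CTCF motif was found 45 times in the span without a mismatch, and all 45 matches lay on the minus strand, the strand of the V genes. Both strands were searched. That was 18.5 matches per Mb, against 2.49 per Mb over the genome, where 3182 lay on the plus and 3380 on the minus strand. With at most 1 mismatch, 146 were found, 127 on the minus and 19 on the plus strand (59.9 per Mb against 24.5). A match is a stretch of reference sequence, and whether CTCF was bound there in the neurons was not measured.

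Many of the exact matches fell at similar distances from the genes, and these differed between Ighv1 and the families Ighv2 and Ighv5. In the sequences below, from the minus strand of GRCm38, the core is in capitals with 10 bases on each side. The first pair lies just past a D-near V segment and the next pair upstream of the genes beside the fourth boundary. The last pair lies near the strongest and in the last boundary of the span.
past Ighv5-2, chr12:113578422-113578455: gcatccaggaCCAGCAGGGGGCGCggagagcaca
past Ighv2-2, chr12:113588183-113588216: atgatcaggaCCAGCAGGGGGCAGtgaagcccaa
before Ighv1-52, chr12:115146664-115146697: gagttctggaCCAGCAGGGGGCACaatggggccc
before Ighv1-53, chr12:115159632-115159665: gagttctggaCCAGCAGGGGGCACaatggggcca
before Ighv1-75, chr12:115837886-115837919: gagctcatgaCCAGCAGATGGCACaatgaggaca
past Ighv1-85, chr12:115997141-115997174: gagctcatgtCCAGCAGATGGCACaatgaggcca
In 12 members the centre of the core lay 62 to 70 bases past the 3′ end, on the same side as the recombination signal. Distances in bases between core matches and genes run from the centre of the core. All 12 had a signal when 1 mismatch was allowed in the heptamer and 2 in the nonamer, and 6 of them, Ighv5-2 among these, had none under the stricter search. They were 6 Ighv2 and 6 Ighv5 records, where 0.0464% of all genes had a match on their strand within 100 bases past the end. Another 13 matches lay 739 to 1260 bases upstream of their nearest member and 11 lay 2694 to 3576 bases upstream, and the nearest member was an Ighv1 gene in each. The other 9 fell in none of these ranges, which were set after the distances were seen. With at most 1 mismatch, 34 matches lay within 500 bases downstream of a member, and 18 of them were beside Ighv2 or Ighv5. The place just past the 3′ end was thus not limited to those families when weaker matches were counted.

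**Figure D4:**
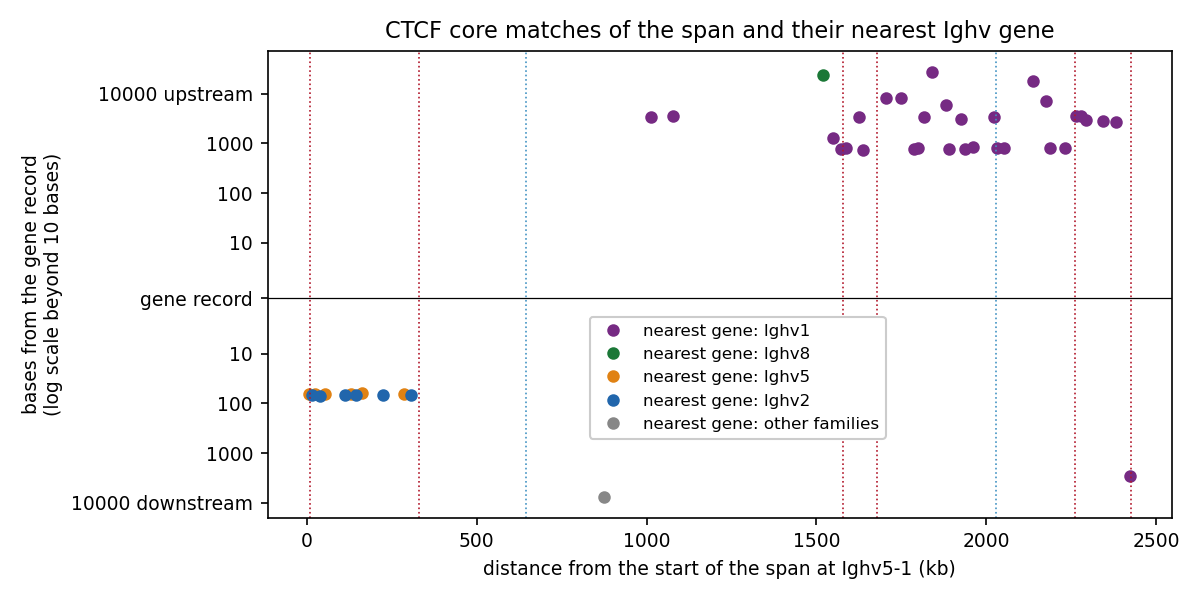
Each of the 45 CTCF core matches of the span by its distance from Ighv5-1 in kb (horizontal) and its distance in bases from the nearest Ighv gene record (vertical, log scale beyond 10 bases, upstream above and downstream below 0), coloured by the family of that gene; dotted lines are the boundaries. The 12 matches of the Ighv2 and Ighv5 genes line up at 62 to 70 bases downstream, and those of Ighv1 lie upstream with 1 exception, downstream of Ighv1-85.

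Matches were unevenly spread among the stretches. The D-near part, below the second boundary, held 12, the part between the second and the fourth 6, and the part from the fourth on 27. The longest part of the array without a match ran for 569 kb, from the one at chr12:113879022-113879035 past Ighv2-9 to chr12:114448157-114448170, and took in the second and the third boundary. The 935 kb stretch had 0.64 matches per 100 kb, and the 320 and 350 kb stretches had 3.44 and 3.43. Between the second and the fourth boundary weaker matches were present, since 63 with at most 1 mismatch lay there, the 6 exact ones included.

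A CTCF core match lay within 5 kb of 48 of the 185 members, where 9.67% of all genes had one, and 1 with at most 1 mismatch lay within 5 kb of 119 (45.3% of all genes). Of the 17 boundaries of the window, 9 had a core match within 20 kb, 5 of the 8 in the span and 4 of the 9 in the flanks. Over all boundaries of the list the share was 21.9%, but core matches were denser in the span, 18.5 per Mb against 2.49 over the genome. The share among bins of the span without a boundary is not given here. With 1 mismatch allowed, all 17 had a match within 20 kb, where 76.3% of all boundaries had one. Of the 45 core matches of the span, 11 were within 20 kb of a boundary. Beside the strongest boundary, the nearest was the one before Ighv1-75, 3485 bases upstream of that gene and outside the bin, and the match past Ighv1-85 was the only one of the span inside a boundary bin. The second, the third and the fifth boundary of the span had none within 20 kb.

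On the far side of the constant genes the direction of the matches turned. The strongest boundary of the flanks, chr12:113210001-113215000 with a strength of 2.02, lay 20.5 kb from Tmem121, between it and Igha. It had 2 core matches within 20 kb, both on the plus strand and so facing the V genes' matches; 1 of them is shown from the plus strand.
below Igha, chr12:113220043-113220076: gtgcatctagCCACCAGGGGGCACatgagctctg
In the whole flank below the span, 5 of 9 core matches lay on the plus strand, and above it 4 of 5. Of the span and its flanks, only the span had all its core matches on 1 strand.

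The stretch between the constant genes and the V genes held no boundary. From chr12:113335001-113340000, a Weak boundary of 0.355 located 5 kb from the start bin of the constant gene Ighg1, none was called up to the first one among the V genes at 113580001. That spacing, 245 kb, was below the median of the whole list, 260 kb. None of the 20 D segments, the 4 J segments and both Adam6 genes, which encode sperm proteins, had a boundary within 20 kb. Adam6a lies between the D and V segments, and Adam6b lies among the D segments. Of the 8 constant genes, Ighg1 alone had one. Among the 17 named genes beside the segments, Jag2 (a Notch ligand), Nudt14 and Ptprn2 had one, a share of 17.6% against 17.9% of all genes.

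The other flank boundaries lay at or near protein-coding genes. Below the span they overlapped Adssl1 (strength 1.80), Cep170b (0.349) and Gpr132 (0.483), and 1 lay 2.88 kb from Nudt14 (0.206). Above it they were 1.26 kb from Wdr60 (0.880), 0.72 kb from Ptprn2 (0.476), a receptor-type phosphatase of secretory vesicles, and inside Ptprn2 (1.26). The window's edges cut nothing close: the outermost boundaries inside it had strengths of 1.80 and 1.26, and the first outside it, 0.402 on the low side and 0.889 on the high side, lay 1418 and 1370 kb from the span.

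Other antigen receptor V gene arrays had fewer boundaries per length in the same map, with no test of the difference, since each array is 1 region. The Ighv span had 3.28 boundaries per Mb, chromosome 12 as a whole 2.81, and single chromosomes 2.63 to 3.56. The Igkv array of the kappa light chain, 160 genes over 3.15 Mb, had 5 boundaries with strengths of 0.225 to 0.873, 1.59 per Mb, of which 1 was Strong. The Trav array of the T cell receptor alpha chain, 128 genes over 1.55 Mb, had none. The Trbv array, 35 genes over 0.667 Mb, had 1, a Weak one of 0.310. A boundary lay within 20 kb of 8 Igkv (5%), 0 Trav and 5 Trbv genes (14.3%).

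CTCF core matches on the genes' strand alone were not limited to Ighv. Trav, with all 128 genes on the plus strand, had 23 core matches, all on the plus strand, at 14.8 per Mb and without a boundary. Trbv had 4, all on the plus strand. Igkv, with 75 genes on the plus and 85 on the minus strand, had 1 match in 3.15 Mb.

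Much of the array is made of 31-base words that occur more than once in the genome, and such a word alone cannot place a read. Of the 31-base words of a bin, the median share found more than once in the genome was 40.7% in the 481 bins of the span without a boundary, 36.6% in the 8 boundary bins and 5.88% in the 400 flank bins. Over all boundary bins of the list it was 7.24%. From the fourth boundary on the median over bins was 54.4%, against 33.9% below the third and 30.9% between them. Copies within the array are part of this: 71 members had another member at over 95% identity, 41 of them Ighv1. Ighv1-26 had 6 such copies, Ighv1-53 5, and Ighv1-34 and Ighv1-64 4 each, whereas the median identity of a pair of members was 79.9% within a family and 56.7% between families.

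The boundary bins differed widely in this measure. The shares were 44.4, 23.3, 0.78, 68.8, 60.2, 20.3, 49.3 and 28.8% in order from the D-near end. The strongest boundary, with 49.3%, stood at or above 93.0% of all boundary bins of the list, and 44.9% of its words had their other copy within the window. Among the 8 boundary bins, the highest share belonged to the boundary between Ighv1-52 and Ighv1-53, the second strongest, and the lowest to the Weak boundary before Ighv7-4; bins of the span without a boundary ranged from 0.16 to 99.5%. What part repeated sequence had in any strength was not tested.

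**Figure D5:**
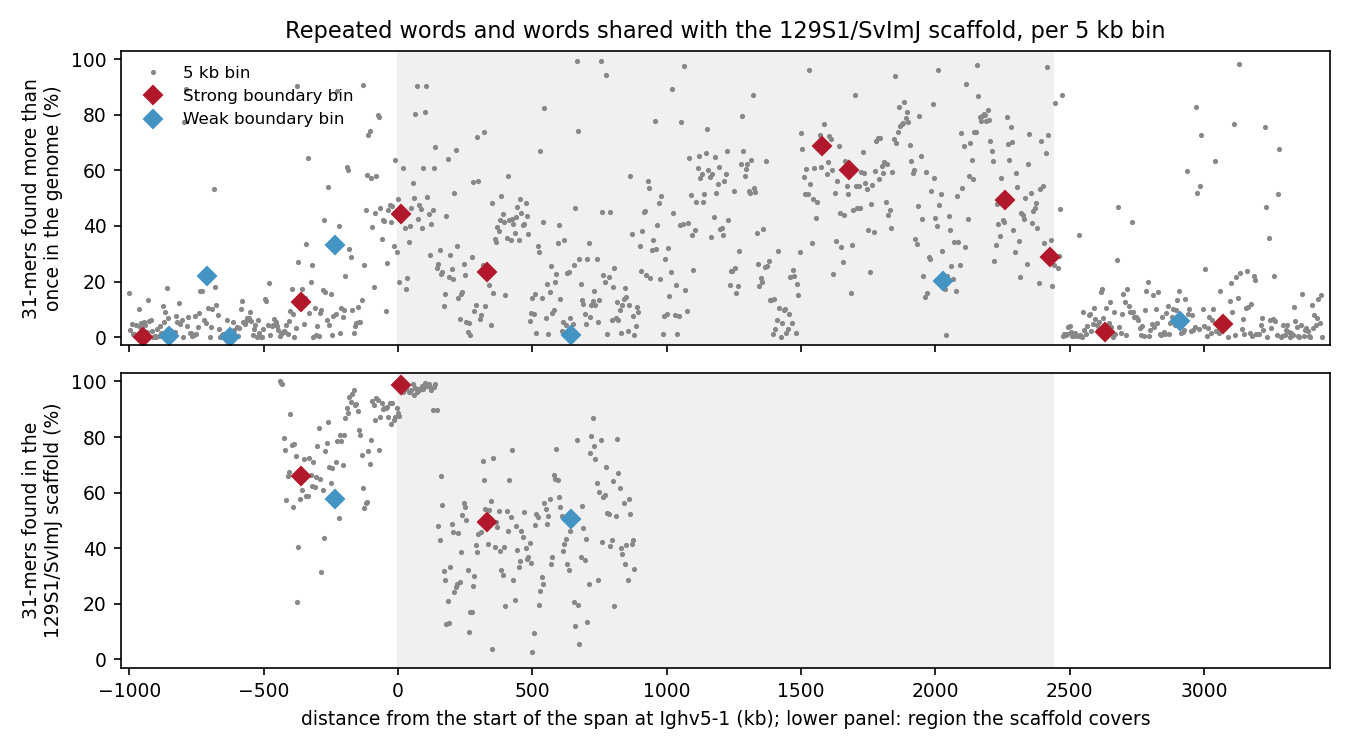
Share of the 31-base words of each 5 kb bin that occur more than once in the genome (upper panel, percent) and share found in the 129S1/SvImJ scaffold for the region it covers (lower panel, percent), against the distance from Ighv5-1 in kb, with boundary bins as diamonds. The span, shaded, has a median of 40.7% in bins without a boundary against 5.88% in the flanks.

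The mice were of a 129 substrain and the reference is C57BL/6J, so the array of the cells need not have the order and number of genes in the reference. The assembly carries an alternate scaffold of another 129 substrain, 129S1/SvImJ, which is 1.71 Mb long and aligned to chr12:113129185-114458693, with 73 members and 5 of the window's boundaries. Members had a median of 98.1% identity to their best match in it, 9 were identical and 4 were under 90%, the lowest being Ighv16-1 at 75.3%.

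The match to that scaffold was uneven along the array. Ighv5-1 itself lay in a bin with 88.6% of its 31-base words also present in the scaffold. In the next 28 bins, from chr12:113575001-113580000 on, the share of such words had a median of 97.5% (range 87.6 to 99.4%). In the 148 bins from there to the end of the scaffold's region the median was 44.5% (range 2.6 to 89.7%). The division was set after the values were seen, at a bin with 89.7% that was followed by one with 48.1%. The 19 members before the division, Ighv5-1 included, had a median identity of 99.8% to the scaffold and the 54 after it 97.3%. Identity along an alignment and the share of exact words are different measures and were not set against each other. The first boundary of the span lay in the closely matching section, with 98.6% of its words in the scaffold, and the second and the third lay beyond it, with 49.5 and 50.6%. The other 5, the strongest among them, lie outside the scaffold's region, and 129S1/SvImJ is not the strain of these mice. What part differences between strains had in any boundary was not tested.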

How the data were processed

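Per the series design text, the authors merged the contacts of the replicates, binned them on GRCm38 and called boundaries from that merged map. Each entry of the deposited list is a 5 kb bin with a class and a strength, a score that the authors computed on a scale they do not state. Which caller, version and window were used is not given in the sources used here. GRCm38 is also the build per the submitters' processing notes. Contact lists, matrices, insulation and compartment tracks were not used here.

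Gene records came from GENCODE mouse release 21 and sequence from GRCm38.p6. Distances were counted between 5 kb bins, from a gene's start unless stated. Words of 31 bases were counted over chromosomes 1 to 19, X and Y on both strands. Identities were global alignments (edlib 1.3.9.post1), and the 129S1/SvImJ scaffold was placed with minimap2 2.31. Other steps used Python 3.11.15 and numpy 2.4.6; the exact interval came from scipy 1.17.1. The searches and distances were tested on simulated data. In printed signals the heptamer was allowed 1 mismatch and the nonamer 3; counts allowed 0 and 2.

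Named members were the first and last gene, those overlapping a boundary bin, the nearest on each side of every boundary and the 3 with most copies above 95% identity, to which Ighv1-64, tied for the third place, was added; other genes came from fixed lists or lay nearest the span or a flank boundary. Genes named outside this rule (Ighv1-18, Ighv2-1, Ighv2-9, Ighv5-8, Ighv1-13, Ighv5-21 and Ighv16-1) were chosen after their values were seen. The members and lists were chosen with earlier results of these data known, so no test was made.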

Additional observations from a re-analysis of the deposited data

How the results depend on the processing

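The list was called on a pooled map, so no replicate could be left out and no value has an error between replicates. No paired analysis was possible because the only group has 1 list made from both replicates together. The window's 17 boundaries became 8 in the span alone, 10 when Strong boundaries were kept and 7 in the top 25% of strengths. The 29 members with a boundary within 20 kb became 2 within 0 kb (2.43% of all genes), 18 within 10 kb and 56 within 50 kb. They became 13 with the top 25% of strengths, and 18 when only V gene records were counted. The 9 boundaries with a CTCF core match became 17 with 1 mismatch (76.3% of all boundaries then had one) and 1 within 0 kb. The 48 members with a core match within 5 kb became 119 with 1 mismatch (45.3% of all genes), 25 within 1 kb and 83 within 20 kb. The repeated share of the strongest boundary bin, 49.3% with 31-base words, was 59.7% with 25-base words and 56.3% over the bin with 2 neighbours on each side. The 78 recombination signals became 3 when both parts had to match exactly. A count can only fall under a stricter setting and rise under a looser one, so the direction of those changes was set in advance. The repeated share over the bin with its neighbours could have moved either way. The other 14 alternatives were counted as unchanged under limits that are not given here, although some of their values differed widely. Among these, the window's 17 boundaries became 12 within 0.5 Mb. The span had 2.46 and 1.64 boundaries per Mb with Strong boundaries and with the top 25%, against 3.28 with all. Its longest spacing was 1250 kb with either, against 935 with all. A core match within 50 kb lay by 13 boundaries. The looser search found 100 signals, and 169 members had an octamer with 1 mismatch allowed. For the other changed member counts the share over all genes at the same setting is not given, so they have no background here. Contact depth is unknown, and the share of reads placed in repeated sequence was not measured.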

Other observations

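The factors that carry out or steer V(D)J recombination lie elsewhere in the genome and were read from the same list. Of 25 such genes, 3 had a boundary within 20 kb of their start (12%, against 17.9% of all genes). Xrcc5, which encodes the Ku80 subunit that binds broken DNA ends, had one in its own start bin, with a strength of 0.559. Nipbl, the cohesin loader, had one at 10 kb with a strength of 0.716. Dntt, the polymerase that adds bases at V(D)J joins, had one at 20 kb with a strength of 1.89. The recombinase genes Rag1 and Rag2 lay 45 and 70 kb from theirs, Pax5 25 kb, Yy1 35 kb and Ctcf 75 kb.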
